A study of Mus musculus with 6 samples.

Results

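The genes examined here carry out or control steps of protein synthesis in the cytosol. They are the elongation factors eEF1A (Eef1a1 and its muscle and neuron paralog Eef1a2) and eEF2 (Eef2), the eEF2 kinase (Eef2k), the cap-binding protein eIF4E (Eif4e), its inhibitors (Eif4ebp1 and Eif4ebp2), the scaffold eIF4G1 (Eif4g1), and eIF5A (Eif5a and its paralog Eif5a2). Members were all probe sets annotated to 1 of these 10 genes alone, which gave 23 of the 45037 probe sets tested and covered 9 genes. No probe set carried the name Eif4g1 alone in the annotation used, and that gene was not analysed here. The cells were C2C12, an immortalized mouse myoblast line that stops dividing and fuses into myotubes in low serum. Differentiated cultures were harvested on day 6 in 2% horse serum, against proliferating cultures in 20% fetal calf serum, with 3 RNA samples and 3 arrays in each group. Both groups are the same line without any engineered allele or added agent, so the kind and amount of serum, time, cell cycle exit and fusion changed together and cannot be told apart. A day 6 culture holds myotubes together with mononucleated cells, and each RNA sample was pooled from several culture plates, so the replicate error is that of pooled RNA and p-values measure only how pools differ.

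During elongation, eEF1A brings each aminoacyl-tRNA to the ribosome and eEF2 then moves the ribosome along the message. Eef2k phosphorylates eEF2 and thereby slows elongation. During initiation, eIF4E binds the cap of the mRNA and recruits eIF4G and the helicase eIF4A, and the 4E-BPs hold eIF4E away from eIF4G until the kinase complex mTORC1 phosphorylates them. The factor eIF5A helps ribosomes over difficult stretches and works only after a lysine of it has been turned into hypusine with spermidine as the donor. In adult skeletal muscle, heart and neurons of rodents, Eef1a2 takes the place of Eef1a1, which other tissues use, and that exchange takes place mainly after birth.

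One window of bases before an annotated start is shown for each of 3 member genes, because Eif4e and Eif5a had the smallest adjusted p-values of the set while Eef2 did not pass the test. All 3 windows hold the hexamer CACGTG, the E-box that Myc and Max bind. The motif reads the same on both strands. Each window is the 250 bases before a RefSeq start site (GRCm38.p6), written 5′ to 3′ on the strand of the gene, with CACGTG in capitals. They were picked for holding the motif. The Eif4e window shown is chr3:138527018-138527267 (+), 1 of 2 for the gene and the one of the pair with CACGTG, with the motif starting 228 and 64 bases before the start. The Eif5a window shown is chr11:69921387-69921636 (-), 1 of 3 with the motif among 6 for the gene, with 1 motif 74 bases before the start. Both lie before alternative starts inside the span of their gene and not in front of its outermost start. The Eef2 window, the single one of that gene, is chr10:81176381-81176630 (+), directly in front of the gene, with 1 motif 43 bases before the start.
Eif4e: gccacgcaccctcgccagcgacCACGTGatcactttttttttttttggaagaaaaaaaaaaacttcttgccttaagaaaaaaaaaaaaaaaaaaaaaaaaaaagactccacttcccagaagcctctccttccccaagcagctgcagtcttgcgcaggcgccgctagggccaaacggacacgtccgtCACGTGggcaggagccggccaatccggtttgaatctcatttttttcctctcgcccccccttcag
Eif5a: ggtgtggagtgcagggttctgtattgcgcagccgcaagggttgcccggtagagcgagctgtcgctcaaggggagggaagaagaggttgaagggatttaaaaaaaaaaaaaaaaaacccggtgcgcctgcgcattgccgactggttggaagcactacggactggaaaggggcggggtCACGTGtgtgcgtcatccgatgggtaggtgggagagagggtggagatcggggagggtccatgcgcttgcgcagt
Eef2: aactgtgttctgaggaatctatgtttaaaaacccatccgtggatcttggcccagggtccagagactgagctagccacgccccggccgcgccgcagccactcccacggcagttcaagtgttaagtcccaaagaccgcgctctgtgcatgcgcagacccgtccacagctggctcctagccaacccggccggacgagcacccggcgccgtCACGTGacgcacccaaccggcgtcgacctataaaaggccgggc
Of the 8 member genes with a window, 5 had CACGTG in at least 1 of them (Eef2, Eef2k, Eif4e, Eif5a and Eif5a2), as did 7 of their 16 windows. Over the whole table, 6.02% of 32851 windows and 6.86% of 27025 genes had it. Windows are not independent: the 3 of Eif5a with the motif hold 2 distinct sites, so a site was counted more than once. A gene with more windows also has more room to hold it. Of all genes with 1 window, 5.92% had it. Of the members with 1 window, Eef2 and Eif5a2 had it and Eef1a1, Eef1a2 and Eif4ebp2 did not. Whether members hold it more often than other genes was not tested. The windows of Eef1a1, Eef1a2 and Eif4ebp2 held no CACGTG, and Eif4ebp1 had no window in the table. Of the genes with a probe set that passed the test as lower, Eef2k, Eif4e and Eif5a held the motif and Eif4ebp2 did not. Of those without such a probe set, Eef2 and Eif5a2 held it and Eef1a1 and Eef1a2 did not. Whether the motif bears on the changes was not tested.

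Signals are MAS 5.0 values in arbitrary units, scaled on each array to a trimmed mean of 249.9. Array medians were 72.3 to 81.4 in differentiated and 68.0 to 73.0 in proliferating cultures. The brightest of 27 Bacillus subtilis control probe sets, which no mouse RNA should light up, lay between 51.9 and 87.0 and is used as the limit of background. Muscle markers fitted the labels. All 8 of those listed were measured and 6 were higher in differentiated cells, with a summed signal of 55829 to 58709 on differentiated and 6617 to 7584 on proliferating arrays, while 3 of 3 proliferation markers were lower. Of 20 markers listed for other cell types 18 were measured, 1 of them higher (Adgre1) and 1 lower (Tubb3). Only 3 of the 18 were above the bacterial control on all 6 arrays, so these markers are a weak check on other cell types. Neurons also use Eef1a2, and their 4 markers summed to 226 to 398 on differentiated and 478 to 572 on proliferating arrays. That sum followed Tubb3, while Rbfox3, Syp and Snap25 had log2 changes of 0.62, 0.28 and 0.07 that did not pass, with Snap25 at background on all 6 arrays. Their part in the Eef1a2 values was not tested. The 3′ to 5′ signal ratio of β-actin, a measure of how complete the labelled RNA was, ran from 1.066 to 1.111 in differentiated and from 1.235 to 1.307 in proliferating samples. That of Gapdh overlapped between the groups, at 0.789 to 0.833 in differentiated and 0.822 to 0.855 in proliferating samples. The part of RNA completeness in the results was not tested.

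Within this set of genes every change that passed the test was a decrease. Of the 23 member probe sets, 6 were lower and 0 were higher in differentiated cells (adjusted p under 0.05 by limma on the log2 of signal + 15, Benjamini-Hochberg over all 45037 probe sets), against 6.43% lower, 6.14% higher and 12.6% either way among all probe sets. At an unadjusted p under 0.05 by limma there were 10 of 23, with 9 lower and 1 higher (the dimmest probe set of Eif4ebp1), where 22.8% of all probe sets were under that threshold. The 6 belonged to 4 genes, Eef2k, Eif4e, Eif4ebp2 and Eif5a. Bright genes passed more often than the rest. Of all genes with a mean signal over 1000 at their brightest probe set, 27.5% were lower and 21.3% higher. Over 5000 the shares were 35.7% lower and 16.0% higher. Among the members, Eef1a1, Eef2, Eif4e, Eif4ebp1 and Eif5a were over 1000 at their brightest probe set. In 10 member probe sets the groups did not overlap, and in all 10 the differentiated arrays were the lower ones, where 27.2% of all probe sets had groups that do not overlap and 12.3% had them with differentiated arrays lower. The median log2 fold change over the 9 genes, each by its brightest probe set, was -0.46, where the median over all 18193 genes was 0.06. For genes with a mean signal over 1000 the median was -0.07, and for those over 5000 it was -0.23. These are bulk cultures, in which fewer cells of a type and less RNA per cell cannot be told apart.

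**Figure D1:**
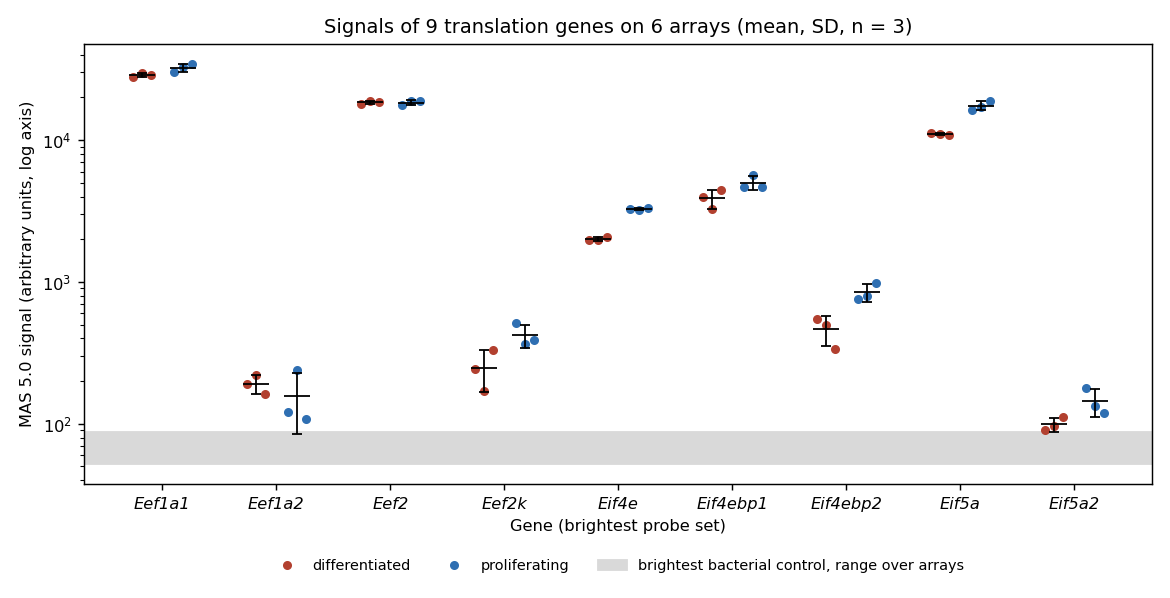
MAS 5.0 signal (arbitrary units, log axis) of the brightest probe set of each of the 9 member genes on 3 differentiated and 3 proliferating arrays, with the mean and SD; the grey band is the range of the brightest bacterial control over the arrays. Eif4e and Eif5a separate by group with little spread, Eef2 lies at the same height in both groups, and the groups of Eef1a2 overlap; heights of different genes cannot be compared, since probes differ in how strongly they bind.

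Neither Eef1a1 nor Eef1a2 passed the test, and an exchange of the first for the second, as in maturing muscle, was not detected on these arrays. Eef1a1, which codes for the widespread eEF1A (chromosome 9), had signals of 27766.3, 29486.7 and 28542.4 on the differentiated arrays, against 30047.7, 32498.9 and 34230.3 on the proliferating arrays. All 3 differentiated arrays were below all 3 proliferating ones, but the step between the groups was small. The means were 28598 ± 862 in differentiated and 32259 ± 2102 in proliferating cells (SD, n = 3 each), a log2 change of -0.17 (SE, standard error, 0.13, 95% interval -0.45 to 0.10, limma adjusted p = 0.49). Under quantile normalization it was 0.02 (limma adjusted p = 0.94), so not even its sign was settled. The brightest probe set of any kind reached 30694.5 to 37350.1 on the differentiated and 38332.0 to 40856.9 on the proliferating arrays, which places Eef1a1 close to the top of the signal range. The gene has many near-identical processed pseudogenes, whose transcripts its probes may also bind.

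Eef1a2, the paralog of muscle and neurons (chromosome 2), had signals of 191.7, 221.4 and 161.5 on the differentiated arrays, against 120.9, 238.0 and 108.7 on the proliferating arrays. The highest of all 6 values was a proliferating one, so the groups overlapped, although every array was above its own bacterial control. Eef1a2 averaged 192 ± 30.0 in differentiated and 156 ± 71.4 in proliferating cells (SD, n = 3 each), a log2 change of 0.34 (SE 0.29, 95% interval -0.28 to 0.96, limma adjusted p = 0.57). The interval runs from a 0.822-fold to a 1.95-fold level in differentiated cells, so a rise of the size seen for Acta1 or Myog, whose log2 fold changes were 6.56 and 5.20, lies outside it. The value leaned on proliferating replicate 2. Without it the log2 fold change was 0.66 (limma adjusted p = 0.16), and leaving out any other single array gave 0.15 to 0.45, none of which passed.

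The test that bears on an exchange is the change of 1 paralog relative to the other within each array. The log2 signal of Eef1a2 minus that of Eef1a1 was -7.07, -6.96 and -7.34 on differentiated arrays, against -7.79, -7.01 and -8.11 on proliferating arrays. The mean moved by 0.51 towards Eef1a2, and the groups overlapped (exact permutation test over arrays, two-sided p = 0.3, adjusted p = 0.45 over 3 pairs of genes). With 3 arrays a group that test cannot give a p below 0.1. The size of the difference itself is set by how the 2 probe sets bind and is no ratio of abundances.

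Among genes that are no members, the 5 whose log2 signal followed Eef1a2 most closely over the 6 arrays were Lias (Pearson's r = 0.991), Egfl7 (0.987), Glb1 (0.980), 1700023G09Rik (0.975) and Ndufaf5 (0.974). None of the 5 passed the test between the groups, and their log2 fold changes lay between 0.09 and 0.40. For Eef1a1 the closest were Top3b (0.994), Aldh18a1 (0.992), Max (0.990), Cstf2 (0.976) and Mapk11 (0.975), of which Cstf2 passed at -0.69 (limma adjusted p = 0.0053). The 6 points of each correlation share the 2 groups and the array scaling, and the genes are the highest of many, so the values are a description.

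Eef2, the translocation factor (chromosome 10), had signals of 18013.7, 18839.6 and 18601.0 on differentiated arrays, against 17549.4, 18800.2 and 18763.8 on proliferating arrays. The ranges lay almost on top of each other. The log2 fold change was 0.01 (SE 0.11, limma adjusted p = 0.98), with a 95% interval of -0.23 to 0.25. That is 0.852-fold to 1.19-fold of the level in proliferating cells, under the scaling used here. Under quantile normalization the log2 fold change was 0.226 (limma adjusted p = 0.17), so the interval does not cover the choice of scaling. The second Eef2 probe set was dim, above the bacterial control on 1 of 3 differentiated and 0 of 3 proliferating arrays, and did not pass (limma adjusted p = 0.93).

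Eef2k, the kinase that inactivates eEF2, was lower in differentiated cells at its brightest probe set (chromosome 7). Its signals were 241.8, 171.4 and 332.4 on differentiated arrays, against 512.2, 367.3 and 389.0 on proliferating arrays, without overlap, although differentiated replicate 3 came close to the lowest proliferating array. The mean was 249 ± 80.7 in differentiated and 423 ± 78.2 in proliferating cells (SD, n = 3 each), a log2 change of -0.76 (SE 0.22, limma adjusted p = 0.038). The other Eef2k probe sets had log2 fold changes of -0.55 (limma adjusted p = 0.21) and -0.80 (limma adjusted p = 0.33), with overlapping groups. The call was a narrow one: it was lost without differentiated replicate 1 or 2 (limma adjusted p = 0.11 and 0.14), without proliferating replicate 1, 2 or 3 (0.17, 0.053 and 0.083), with a larger pseudocount (0.051) and with eBayes without trend (0.20).

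Eif4e, the cap-binding protein, was lower in differentiated cells at both of its bright probe sets. At its brightest probe set (chromosome 3) the signals were 1975.1, 1985.1 and 2068.2 on differentiated arrays, against 3266.8, 3224.5 and 3292.6 on proliferating arrays. The gap between the groups was many times the spread within either. The mean was 2009 ± 51.1 in differentiated and 3261 ± 34.4 in proliferating cells (SD, n = 3 each), a log2 change of -0.69 (SE 0.09, 95% interval -0.88 to -0.51, limma adjusted p = 9.9e-05). A second probe set gave 707.8, 688.6 and 634.9 on differentiated arrays, against 1136.2, 1233.5 and 1178.8 on proliferating arrays, and a log2 change of -0.79 (SE 0.10, limma adjusted p = 0.00014). Both were called under all 14 alternatives run on probe sets, the brightest only narrowly with eBayes without trend (limma adjusted p = 0.0498). The 2 remaining probe sets averaged 106 ± 15.7 and 74.8 ± 24.1 in differentiated and 107 ± 10.7 and 99.7 ± 16.9 in proliferating cells (SD, n = 3 each), near the bacterial controls, and did not pass.

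The probe sets of the eIF4E inhibitors gave mixed values. Eif4ebp1, the 4E-BP that responds to mTORC1 in many cell types, had signals of 3940.2, 3239.7 and 4440.0 on differentiated arrays, against 4678.9, 5686.6 and 4642.0 on proliferating arrays at its brightest probe set (chromosome 8). These did not overlap, but the log2 fold change of -0.37 (SE 0.13) missed the threshold (limma adjusted p = 0.08), and it passed without differentiated replicate 3 (-0.48, adjusted p = 0.035), with dim probe sets left out (adjusted p = 0.031) and by the regularized test (adjusted p = 0.032). Its second probe set, nearly as bright, averaged 3675 ± 322 in differentiated and 3762 ± 656 in proliferating cells (SD, n = 3 each), a log2 change of -0.02, and the third and dimmest was on the other side at 0.57 (limma adjusted p = 0.17). Over the 3 probe sets averaged, Eif4ebp1 changed by 0.06 (limma adjusted p = 0.84), so no direction can be given for this gene.

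Eif4ebp2, the other 4E-BP, was lower in differentiated cells at its brightest probe set alone (chromosome 10). Signals were 551.3, 496.7 and 339.0 on differentiated arrays, against 761.9, 796.5 and 987.5 on proliferating arrays, with every differentiated array below every proliferating one. The mean was 462 ± 110 in differentiated and 849 ± 122 in proliferating cells (SD, n = 3 each), a log2 change of -0.87 (SE 0.17, limma adjusted p = 0.0038). Its 4 other probe sets had overlapping groups and log2 fold changes between -0.34 and 0.14, and none passed. Averaged over all 5 probe sets the change was -0.23 (limma adjusted p = 0.35), so the call rests on 1 probe set of 5. Relative to Eif4ebp2 within each array, Eif4ebp1 moved by 0.50 on the log2 scale with overlapping groups (exact permutation test, two-sided p = 0.3, adjusted p = 0.45 over 3 pairs). Without differentiated replicate 3 the value was 0.20, and without any other single array it was 0.34 to 0.69.

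Eif5a, the hypusine-bearing factor (chromosome 11), was lower in differentiated cells at both of its probe sets. The brighter gave 11152.5, 11021.1 and 10807.9 on differentiated arrays, against 16335.2, 17153.2 and 18870.3 on proliferating arrays, and the dimmer gave 3969.0, 3992.0 and 4471.4 on differentiated arrays, against 7575.5, 9016.6 and 7655.4 on proliferating arrays. Neither pair of groups came near to overlapping. The means of the brighter were 10994 ± 174 in differentiated and 17453 ± 1294 in proliferating cells (SD, n = 3 each), a log2 change of -0.66 (SE 0.11, limma adjusted p = 0.00098). Under quantile normalization the change of the brighter was smaller, -0.44 (limma adjusted p = 0.013). The dimmer averaged 4144 ± 284 in differentiated and 8082 ± 810 in proliferating cells (SD, n = 3 each), a log2 change of -0.96 (SE 0.10, limma adjusted p = 3.8e-05). The name suffixes of both probe sets mark probes that may also bind near-identical sequences, so the signals may include other transcripts besides those of Eif5a. The same holds for the brightest probe sets of Eef2k and Eif4ebp1. Among the other translation genes named below, it holds for those of Sesn1, Abce1 and Gspt1.

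Eif5a2, a second gene for the same factor (chromosome 3), was dim. Its brightest probe set gave 90.3, 95.7 and 111.4 on differentiated arrays, against 179.1, 133.3 and 118.6 on proliferating arrays, a log2 change of -0.46 (SE 0.28, limma adjusted p = 0.39). The second gave 69.7, 88.0 and 33.9 on differentiated arrays, against 165.2, 122.8 and 176.9 on proliferating arrays, a log2 change of -1.16 (SE 0.37, limma adjusted p = 0.06). In both the groups did not overlap and neither passed, while the mean over both passed at -0.81 (limma adjusted p = 0.042). The second was called under 4 of 14 alternatives: an equal 75th percentile, quantile normalization, dim probe sets left out and the regularized test. Relative to Eif5a within each array, Eif5a2 moved by 0.20 on the log2 scale with overlapping groups (exact permutation test, two-sided p = 0.5, adjusted p = 0.5 over 3 pairs). The value was 0.40 without proliferating replicate 1, 0.03 without proliferating replicate 3, 0.11 without differentiated replicate 3 and 0.00 over the mean of all probe sets, so no direction can be given.

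**Figure D2:**
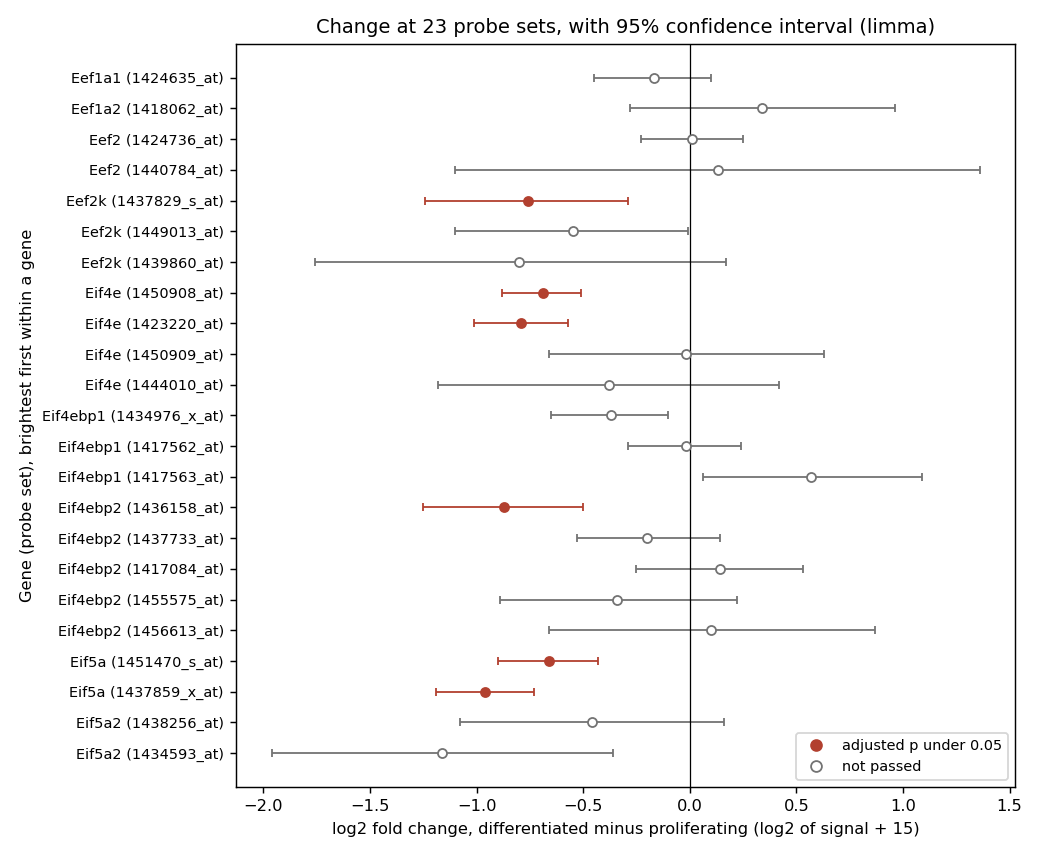
Log2 fold change, differentiated minus proliferating, at each of the 23 member probe sets, with the 95% confidence interval from limma; filled points have an adjusted p under 0.05. The 6 filled points are all negative, from -0.96 for the dimmer Eif5a probe set to -0.66 for the brighter one, and the intervals of Eef1a1, Eef1a2 and Eef2 include 0.

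The other genes of translation were read from 7 lists of 118 genes, of which 104 had a probe set annotated to that gene alone and 14 had none. Each gene is given by its brightest probe set. In differentiated cells 12 were higher and 27 lower, and 65 did not pass, which makes 37.5% called, against 17.7% called, 9.05% lower and 8.67% higher among all 18193 genes. Translation genes are bright, and bright genes were called more often: of the 294 genes with a mean signal over 5000, 35.7% were lower and 16.0% higher, with a median log2 fold change of -0.23. Of the 14 listed genes above 5000, 5 were lower and 1 was higher. Over 1000 the shares were 27.5% lower and 21.3% higher of 2285 genes, against 21 lower and 7 higher of 52 listed genes. Under quantile normalization the listed genes numbered 12 higher and 20 lower.

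Of the list of the eEF1 exchange factor and the enzymes that modify eEF1A and eEF2, 15 of 18 genes were measured, 0 rose and 4 fell, with a median log2 fold change of -0.28. Eef1d, a subunit of the factor that reloads eEF1A with GTP, averaged 3281 ± 298 in differentiated and 5277 ± 289 in proliferating cells (SD, n = 3 each), a log2 change of -0.69 (limma adjusted p = 0.00037). Eef1akmt1, a lysine methyltransferase of eEF1A, fell by 0.64 on the log2 scale (limma adjusted p = 0.0082). Dph5 and Dph6, enzymes of the diphthamide that marks eEF2, had log2 fold changes of -0.48 each (limma adjusted p = 0.049 and 0.042), but Dph6 was not called with any single array left out (limma adjusted p = 0.06 to 0.12) and Dph5 was called only without differentiated replicate 3 (limma adjusted p = 0.083 to 0.17 without the others). Dph1 was at background in both groups.

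The cap-binding list changed in both directions, with 3 genes higher, 7 lower and 10 not passed among 20 of 22 measured, and a median log2 fold change of 0.01 that turned to -0.04 where the 75th percentile of every array was made equal. Under quantile normalization 2 genes of this list, not 7, were lower. The paralogous helicases of the complex went opposite ways. Eif4a2 had signals of 8775.6, 8465.1 and 8069.8 on differentiated arrays, against 3843.2, 3284.0 and 3425.2 on proliferating arrays, a log2 change of 1.26 (SE 0.10, limma adjusted p = 2e-06). Eif4a1, named after its values were seen, had 10449.9, 9829.7 and 9637.4 on differentiated arrays, against 16427.3, 16191.1 and 17109.1 on proliferating arrays, a log2 change of -0.73 (SE 0.10, limma adjusted p = 0.00032). Each was called under all 14 alternatives, and no array of one group reached the range of the other.

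Paip2, a repressor that takes the poly(A)-binding protein off the message, averaged 3319 ± 58.5 in differentiated and 1775 ± 62.3 in proliferating cells (SD, n = 3 each), a log2 change of 0.90 (limma adjusted p = 1.3e-05). Its partner Pabpc1, also named after its values were seen, averaged 14401 ± 1263 in differentiated and 21617 ± 1728 in proliferating cells (SD, n = 3 each), a log2 change of -0.59 (limma adjusted p = 0.0055), a call lost under quantile normalization and with eBayes without trend. Mknk2, a kinase that phosphorylates eIF4E, averaged 6450 ± 383 in differentiated and 3473 ± 123 in proliferating cells (SD, n = 3 each), a log2 change of 0.89 (limma adjusted p = 2.5e-05). Eif4e3, a relative of eIF4E, had a log2 fold change of -0.95 (limma adjusted p = 0.011), a call lost without proliferating replicate 2 (-0.82, adjusted p = 0.058) or 3 (-0.91, adjusted p = 0.053).

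The hypusine and polyamine list, with 9 of 12 genes measured, had 2 higher and 3 lower. Srm, the spermidine synthase, had signals of 833.3, 849.0 and 825.1 on differentiated arrays, against 1960.1, 2369.9 and 1959.5 on proliferating arrays, a log2 change of -1.31 (SE 0.10, limma adjusted p = 2.2e-06), and was called under all 14 alternatives. Dohh, which completes hypusine, had a log2 change of -0.53 (limma adjusted p = 0.011, but 0.061 without differentiated replicate 1), and Dhps, which begins it, one of -0.24 that did not pass (limma adjusted p = 0.49). Azin1, an antizyme inhibitor, fell by 0.49 and Oaz2, an antizyme that lowers polyamine synthesis and uptake, rose by 0.51 on the log2 scale (limma adjusted p = 0.0074 and 0.003).

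The mTORC1 list was the only one of the 7 with more genes higher than lower: of 23 of 25 measured, 6 rose and 1 fell, with a median log2 fold change of 0.30. That is 26.1% higher and 4.3% lower, where 8.67% of all genes were higher and 9.05% lower. Of all genes with a mean signal over 1000, 21.3% were higher and 27.5% lower. Sesn1, a sestrin that restrains mTORC1 when amino acids or stress call for it, had 956.6, 949.0 and 858.5 on differentiated arrays, against 359.2, 345.9 and 408.7 on proliferating arrays, a log2 fold change of 1.28 (limma adjusted p = 9.3e-06), and Sesn3 one of 0.80 (limma adjusted p = 0.002). Rptor, the subunit through which mTORC1 binds its substrates, the 4E-BPs included, averaged 1046 ± 184 in differentiated and 605 ± 51.7 in proliferating cells (SD, n = 3 each), a log2 change of 0.76 (limma adjusted p = 0.0021). Ddit4, a stress-induced inhibitor of mTORC1, was the gene that fell, at 726 ± 72.9 in differentiated and 1384 ± 80.1 in proliferating cells (SD, n = 3 each), a log2 change of -0.92 (limma adjusted p = 7.1e-05). The genes that rose thus included inhibitors as well as a core subunit, and Mtor itself, at 0.24, did not pass (limma adjusted p = 0.25).

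In the eIF2 list, 21 of 23 genes were measured, with 1 higher and 6 lower. The gene that rose was Ppp1r15a, a stress-induced subunit of the phosphatase that acts on eIF2, with signals of 863.2, 781.1 and 899.3 on differentiated arrays, against 279.8, 518.7 and 401.1 on proliferating arrays, a log2 fold change of 1.10 (limma adjusted p = 0.0011). Denr, a reinitiation and recycling factor, had a log2 fold change of -0.82 (limma adjusted p = 0.00012), Eif1ax, a scanning factor, one of -0.77 (limma adjusted p = 0.00033), and Eif2d one of -0.48 (limma adjusted p = 0.017, but 0.066, 0.063 and 0.053 without differentiated replicate 1, proliferating replicate 1 and proliferating replicate 3). The 4 eIF2 kinases measured, Eif2ak1 to Eif2ak4, did not pass.

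Of the eIF3 subunits, 11 of 13 were measured and 3 fell, Eif3b at -0.56 (limma adjusted p = 0.00075), Eif3k at -0.43 (0.0099, but 0.052 without differentiated replicate 1) and Eif3l at -0.43 (0.012, but 0.074 without differentiated replicate 2). All 11 had a negative log2 fold change, 10 of them under quantile normalization, where the median of the list was -0.09 and not -0.22. These genes are bright, each with a mean signal over 1000. Of all genes over 1000, 27.5% were lower, near the 27.3% of this list. The median was -0.07 for genes over 1000 and -0.23 for genes over 5000. How many bright genes had a negative change was not counted. All 5 termination and recycling genes were measured, and 3 fell: Gspt1, the release factor eRF3a, at -0.73 (limma adjusted p = 0.00024), Abce1, which splits ribosomes after termination, at -0.51 (0.0029), and Eif6, which keeps the large subunit apart, at -0.39 (0.046). The call of Eif6 was lost without differentiated replicate 1 or 2 (0.18 and 0.16), without proliferating replicate 1 or 2 (0.10 and 0.15) and under quantile normalization. It was also lost with a larger pseudocount, with a replicate block and with eBayes without trend.

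**Figure D3:**
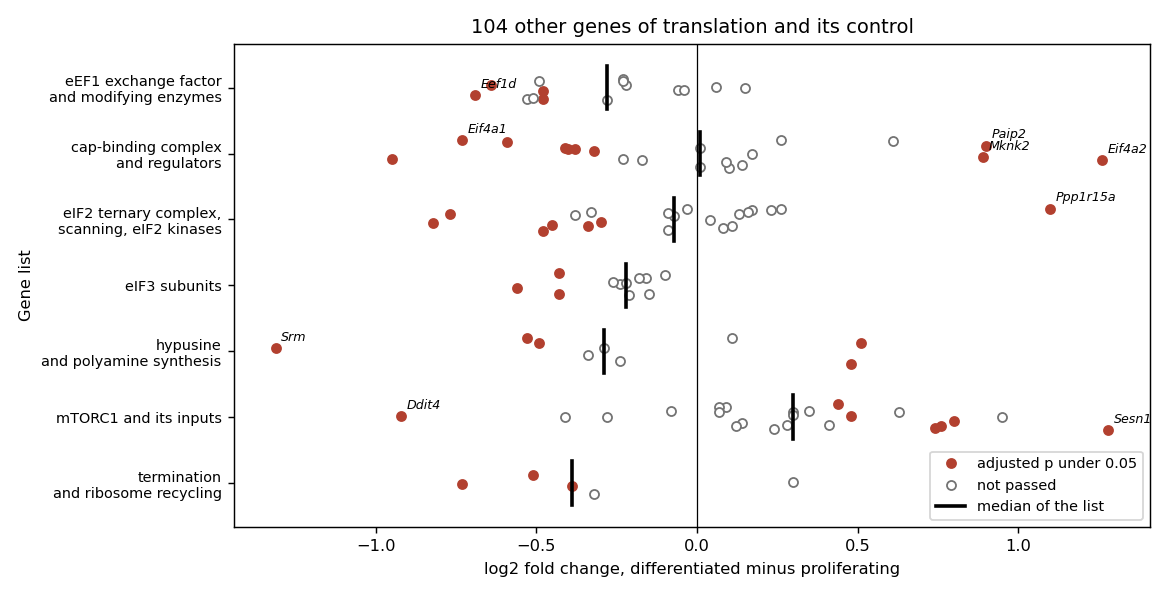
Log2 fold change, differentiated minus proliferating, of the brightest probe set of 104 further translation genes in 7 lists; filled points have a limma adjusted p under 0.05 and the black bar is the median of each list. The mTORC1 list lies mostly to the right of 0 with a median of 0.30, the eIF3 subunits lie to the left of 0 (10 of 11 under quantile normalization), and the cap-binding list spreads both ways from Eif4e3 at -0.95 to Eif4a2 at 1.26. Bright genes as a whole also lie to the left, with a median of -0.07 for mean signals over 1000 and -0.23 over 5000.

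**Figure D4:**
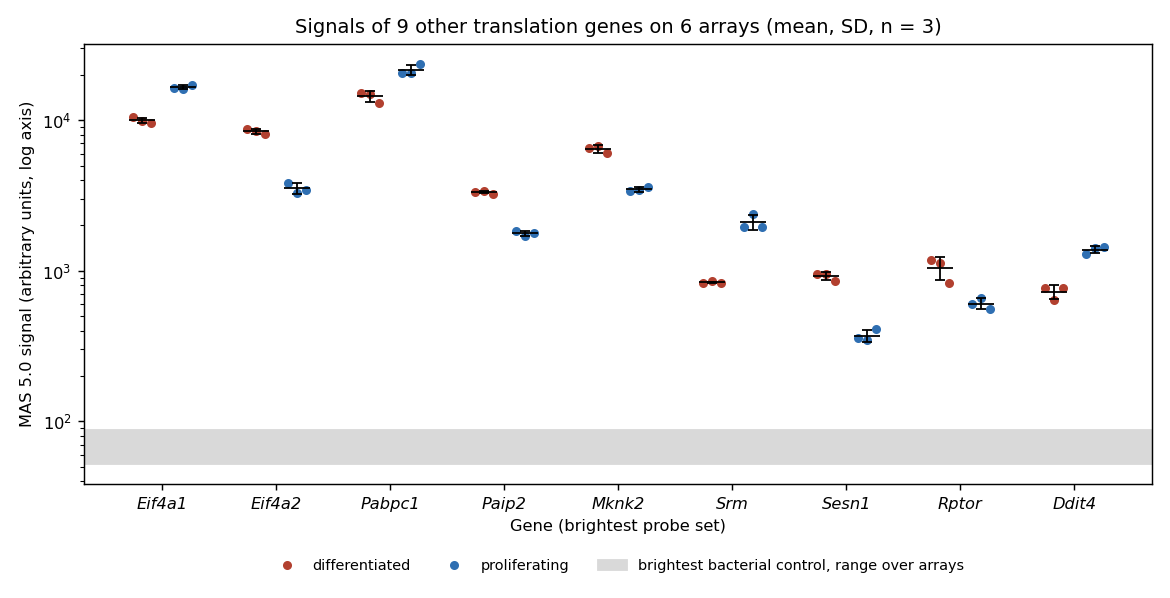
MAS 5.0 signal (arbitrary units, log axis) of 9 of these genes on 3 differentiated and 3 proliferating arrays, with the mean and SD; the grey band is the range of the brightest bacterial control. Differentiated arrays are higher for Eif4a2, Paip2, Mknk2, Sesn1 and Rptor and lower for Eif4a1, Pabpc1, Srm and Ddit4, with no overlap between the groups in any of the 9.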

How the data were processed

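Each RNA sample was hybridised to 1 Affymetrix mouse genome array. The authors deposited linear intensity values, the signals of MAS 5.0. GCRMA, which the methods name as a later step, needs probe-level data and was not repeated. The table holds 45101 probe sets, and the 64 controls of the manufacturer were not tested. GEO's platform annotation named 1 gene for 34945 probe sets, several for 932 and none for 9160. Signals plus a pseudocount of 15, near the 20th percentile of all values (14.8), were taken to log2 and tested with lmFit and trended eBayes of limma 3.58.1 (R 4.3.3), 2-sided. The fold changes therefore understate changes of dim genes. Differences within arrays were tested by exact permutation over arrays (scipy 1.17.1). The number of arrays, 3 per group, limits the precision of every value.

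The 9 members with a probe set were named with every probe set, as were up to 4 genes per pathway list that passed with the largest change, and the 5 genes most like Eef1a1 and Eef1a2. Members and lists were chosen with earlier results of these data known. The limit of background was set on the bacterial controls. The limma step was tested on simulated data. Alternatives covered scaling, pseudocount, dim probe sets, variance model, a regularized test, pairing and leaving out each array.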

Additional observations from a re-analysis of the deposited data

How the results depend on the processing

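Decreases of Eif4e and Eif5a kept their direction under every alternative run, and Eif4e was called under all of them. With eBayes without trend the call at its brightest probe set was narrow (limma adjusted p = 0.0498). With eBayes without trend the counts fell to 1367 probe sets higher and 1302 lower, 3 member probe sets lower (both bright ones of Eif4e and the dimmer of Eif5a), with adjusted p = 0.20 for Eef2k, 0.10 for Eif4ebp2 and 0.066 for the brighter of Eif5a, and 6 pathway genes higher and 4 lower. Of the pathway genes named above, only Eif4a1, Eif4a2, Paip2, Mknk2, Denr, Srm, Sesn1, Sesn3 and Ddit4 were called under that setting. Leaving out 1 array at a time gave 1950 to 2396 probe sets higher and 2304 to 2542 lower, 5 to 7 member probe sets lower, 10 to 12 pathway genes higher and 17 to 22 lower. The signs of small changes were not fixed: Eef1a1 was at 0.022 under quantile normalization, Eef2 at 0.226 under quantile normalization, at -0.043 where all arrays had an equal 75th percentile, at -0.004 without differentiated replicate 2, at -0.023 without proliferating replicate 1 and between -0.023 and 0.028 with 1 array left out, and Eif4ebp1 at 0.059 over the mean of its probe sets. Eif5a2 relative to Eif5a was at -0.111 under quantile normalization and at 0.030 to 0.403 with 1 array left out, and Eif4ebp1 relative to Eif4ebp2 at 0.195 to 0.688. With dim probe sets left out and by the regularized test, 8 member probe sets were lower. Over the arrays left out in turn, Eef1a1 ran from -0.222 to -0.128, Eef1a2 from 0.145 to 0.661 and their difference from 0.274 to 0.827. Same-numbered arrays deviated together with correlations of 0.058, 0.020 and 0.014, and arrays of different numbers with -0.037 to 0.015. Values this small cannot settle whether the numbers pair the samples, and the main test did not pair them. A replicate block gave 2580 probe sets higher and 2707 lower, the same 6 member probe sets, and 11 pathway genes higher and 20 lower. The causes were not tested. Probe sets near the bacterial controls, Eif5a2 among them, have wide intervals.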
